A study of Mus musculus with 24 samples.

Results

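The genes that encode the 5 subunits of the transcription factor NF-κB (Nfkb1, Nfkb2, Rel, Rela and Relb) and 5 of its inhibitors (Nfkbia, Nfkbib, Nfkbie, Nfkbiz and Bcl3) were followed in RNA-Seq libraries of cells sorted from mouse ileum. The 10 genes were taken by symbol, for their place in the pathway, from the 39056 genes counted in 24 libraries. Live cells from C57BL/6 mice of 9 to 10.3 weeks were sorted on CD45, the surface phosphatase carried by hematopoietic cells, and each CD45+ or CD45- library held a mixture of cell types. The mice were either Hoil1+/+ or Hoil1-/-, and each of these was studied on an Il4ra f/f and on an Il4ra ΔIEC background, which made 4 genotypes with 3 libraries each in either fraction. All of them carried floxed Il4ra, which encodes a chain of the IL-4 and IL-13 receptors. ΔIEC mice also carried Vil1cre, a transgene whose villin promoter is active in intestinal epithelial cells (IECs), so the deletion was aimed at cells of the CD45- fraction, and Cre alone was not among the groups. Hoil1-/- mice carried the Rbck1 tm1Kiwa allele in all cells, which is a partial deficiency: a low level of a shortened HOIL1 protein remains.

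NF-κB is a dimer of Rel-family proteins that is held in the cytoplasm by inhibitors of the IκB family. When receptors of TNF, IL-1, lymphotoxin or microbial products are engaged, the IKK kinases mark the inhibitor for destruction and the dimer enters the nucleus. HOIL1, encoded by Rbck1, belongs to the complex that builds linear ubiquitin chains, on which IKK is recruited and activated. Several inhibitor genes are themselves NF-κB targets, which makes their mRNA a feedback arm of the pathway. Levels of mRNA do not measure activity, which is set largely by the location of the proteins.

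The libraries held 6028275 to 76807504 counts on genes, with a median of 26207090, so that 3 counts, taken as the smallest level the depth could show, were 0.0365 to 0.41 CPM (counts scaled to library size with TMM factors). Rbck1, which checks the genotype, ranged over 72.9 to 159 CPM in Hoil1+/+ mice (12 libraries) and over 0 to 15.9 CPM in Hoil1-/- mice (12 libraries). Ptprc, which encodes CD45, was at 250.2 to 757 CPM in CD45+ libraries and at 0 to 16.2 CPM in CD45- libraries. The study left out 3 libraries as outliers, all Hoil1-/-: CD45+ f/f replicate 1, CD45+ ΔIEC replicate 3 and CD45- f/f replicate 3, where replicate numbers are names only. Tests used the other 21 libraries, and levels are given for all 24. CD45- libraries differed in makeup within genotypes, with summed CPM of 9 enterocyte markers from 328 to 33352 and of 10 endothelial markers from 2525 to 18311. Of the other cell types, 9 hematopoietic markers summed to 2.88 to 153 CPM in CD45- and 4240 to 5160 CPM in CD45+ libraries, and 10 epithelial markers to 79.0 to 562 CPM in CD45+ and 1723 to 17277 CPM in CD45- libraries. Because the RNA came from mixtures, fewer cells of a type and less RNA per cell cannot be told apart.

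Promoter sequence from RefSeq (GRCm38.p6) was matched for 7 of the 10 genes: Nfkb2, Rel, Rela, Nfkbia, Nfkbib, Nfkbie and Bcl3. The 250 bases before each annotated start were searched on both strands for the κB motif, the 10-base consensus bound by NF-κB dimers. It matched in 4 of the 7 genes, namely Nfkb2, Rel, Nfkbia and Nfkbie, against 8.23% of all gene symbols with a window. By window it matched in 6 of 9, against 7.25% of the 32851 windows in the table. The 9 include several windows of Nfkb2, all of which matched and some of which overlap. Rela, Nfkbib and Bcl3 held no match in these windows. The windows of Rel and Nfkbie are shown because these genes differed most between the fractions, and that of Nfkbia as the inhibitor at the highest level. Rel lies at chr11:23736847-23770970, Nfkbie at chr17:45555703-45563169 and Nfkbia at chr12:55489410-55492647 in GRCm38, and the windows lie before their first exons. Bases are 5′ to 3′ on the gene's strand, and capitals mark matches, which overlap on the 2 strands in Rel.

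Rel (chr11:23770971-23771219, minus strand): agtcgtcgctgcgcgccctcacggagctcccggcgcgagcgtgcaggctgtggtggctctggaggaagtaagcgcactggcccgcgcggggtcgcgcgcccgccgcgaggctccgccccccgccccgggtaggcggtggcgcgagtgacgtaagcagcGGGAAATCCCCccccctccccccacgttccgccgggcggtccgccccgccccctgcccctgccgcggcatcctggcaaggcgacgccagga

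Nfkbie (chr17:45555450-45555699, plus strand): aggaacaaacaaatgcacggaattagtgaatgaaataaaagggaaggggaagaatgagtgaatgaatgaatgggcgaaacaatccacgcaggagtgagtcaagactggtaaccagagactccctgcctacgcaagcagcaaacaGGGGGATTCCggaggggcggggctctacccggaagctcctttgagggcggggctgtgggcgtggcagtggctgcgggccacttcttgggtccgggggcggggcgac

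Nfkbia (chr12:55492648-55492897, minus strand): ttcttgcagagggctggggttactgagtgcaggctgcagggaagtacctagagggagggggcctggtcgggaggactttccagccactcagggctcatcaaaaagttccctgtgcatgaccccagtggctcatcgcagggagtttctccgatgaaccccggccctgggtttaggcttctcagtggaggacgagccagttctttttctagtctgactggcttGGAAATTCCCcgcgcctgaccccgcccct

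The first base of the match lay at -92 in Rel, -106 in Nfkbie and -29 in Nfkbia, counted back from the start of transcription. In the windows of the 3 Nfkb2 starts the matches read GGGAATTCCC with its overlapping neighbour and GGGGCTTTCC before the first start, GGAATGTCCC before the second and GGGACTTTCC before the third. A match describes the letters only, and no binding was measured.

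CD45+ and CD45- cells differed most in Rel, which encodes the subunit c-Rel known from lymphocytes and myeloid cells, and in Nfkbie, which encodes the inhibitor IκBε. Rel was at 39.0 to 365 CPM (median 121) in the 12 CD45+ libraries and at 3.89 to 22.9 CPM (median 10.53) in the 12 CD45- libraries. Nfkbie was at 57.1 to 147 CPM (median 107) and at 0 to 19.8 CPM (median 6.49). The fractions did not overlap for either gene, and how many of all genes were apart in this way was not counted. In the library with no Nfkbie count, CD45- Hoil1-/- f/f replicate 3, 3 counts would have been 0.334 CPM. Rel was 12.96-fold higher in CD45+ cells (log2 difference 3.70, SE 0.32, adjusted p = 1.18e-07), and Nfkbie was 12.9-fold higher (3.69, SE 0.36, adjusted p = 3.69e-07). These are edgeR quasi-likelihood tests averaged over the 4 genotypes.

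**Figure D1:**
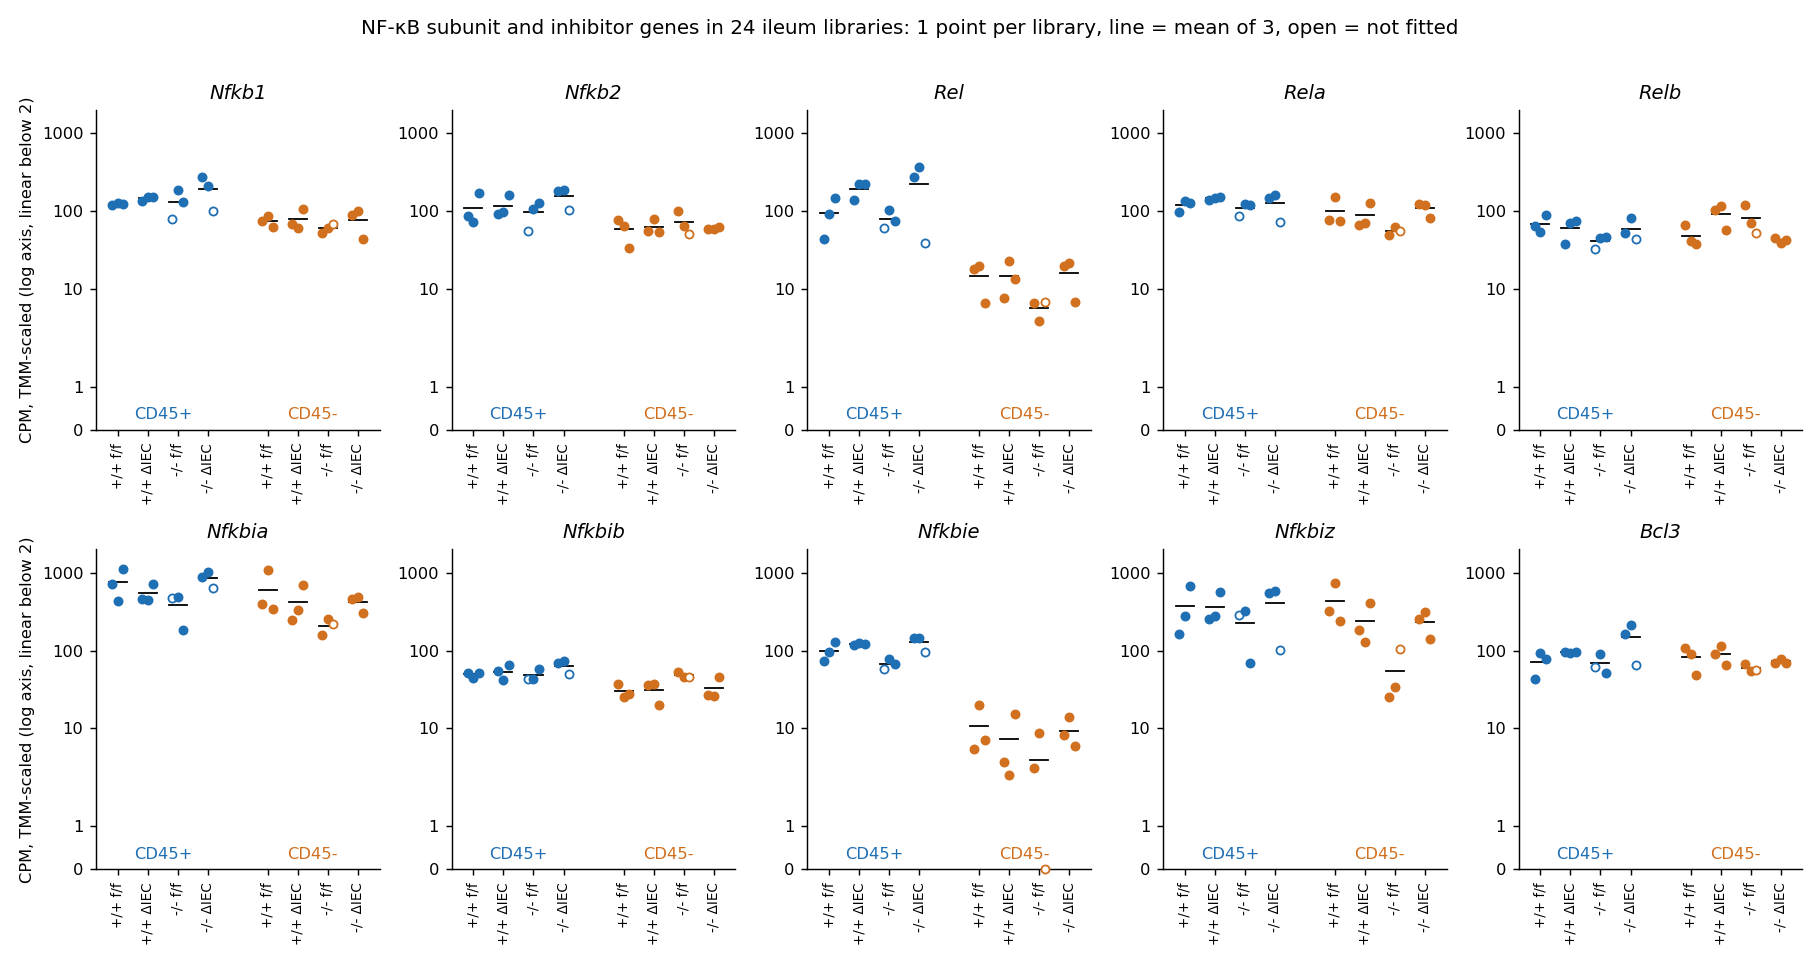
CPM of the 10 genes on a log axis that is linear below 2, by fraction and genotype (Hoil1 first, then Il4ra), with 1 point for each of the 24 libraries, a line at the mean of 3 and open points for libraries that were not fitted. Rel (lowest CD45+ 39.0, highest CD45- 22.9 CPM) and Nfkbie (57.1 and 19.8 CPM) are the genes of the 10 whose fractions do not overlap, and Nfkbiz is lowest in CD45- Hoil1-/- f/f libraries (25.3, 34.3 and 103 CPM). Overlap was not counted over all genes.

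Of the 10 genes, 7 passed the test between fractions, and all 7 were higher in CD45+ cells. Among the 18778 genes tested, 49.6% passed in either direction and 24.5% passed as higher in CD45+ cells. The median log2 difference was 0.81 over the 10 genes and 0.03 over all genes tested. Of the subunits, 4 of 5 were higher, Relb being the exception. Of the IκB inhibitors that hold dimers in the cytoplasm, Nfkbib and Nfkbie passed and Nfkbia did not, and of the nuclear members of the family Nfkbiz passed and Bcl3 did not.

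Nfkb1, whose product p105 is cut to the p50 subunit, had CD45+ levels of 80.6 to 273 CPM (median 133) against 43.6 to 106 CPM (median 68.4) in CD45- libraries. In 10 of the 12 CD45+ libraries it was above every CD45- library, and the mean difference was 2.26-fold (log2 1.17, SE 0.16, adjusted p = 1.03e-05). Nfkb2, whose product p100 is cut to p52 in the alternative pathway, was at 56.4 to 188 CPM (median 104) against 33.5 to 100.4 CPM (median 60.5). Here 7 CD45+ libraries were above every CD45- library, with a difference of 1.96-fold (log2 0.97, SE 0.19, adjusted p = 0.000494). Nfkb2 overlaps Psd on the other strand, and whether the counting used strand is not given in the sources used here.

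Rela, which encodes p65, the partner of p50 in the classical dimer, was at 71.7 to 160 CPM (median 132) against 50.2 to 150.1 CPM (median 75.7). Of the CD45+ libraries 2 were above every CD45- library, and 5 CD45- libraries were below every CD45+ library, while the rest overlapped. The difference of 1.57-fold passed (log2 0.65, SE 0.16, adjusted p = 0.00291). Relb, the transactivating partner of p52, went the other way in level, with 33.0 to 88.8 CPM (median 53.5) in CD45+ and 38.2 to 121 CPM (median 55.2) in CD45- libraries. Its log2 difference of -0.12 was smaller than its SE of 0.19 (adjusted p = 0.691). The subunit set thus held a difference of over 3 on the log2 scale for Rel, about 1 for Nfkb1 and Nfkb2, less for Rela and none that passed for Relb.

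Nfkbia, which encodes IκBα, the inhibitor resynthesised after each round of activation, ranged widely in both fractions, from 182 to 1098 CPM (median 566) in CD45+ and from 160 to 1066 CPM (median 339) in CD45- libraries. The ranges nearly coincided, and the log2 difference of 0.64 (SE 0.27) did not pass (adjusted p = 0.0629). It passed when all 24 libraries were fitted (adjusted p = 0.033) and without any of 4 libraries in turn: CD45- Hoil1+/+ f/f replicate 2, CD45- Hoil1+/+ ΔIEC replicate 3, CD45+ Hoil1-/- f/f replicate 3 or CD45+ Hoil1+/+ f/f replicate 2. Nfkbib, which encodes the steadier inhibitor IκBβ, was at 42.0 to 73.0 CPM (median 51.8) against 20.0 to 53.2 CPM (median 36.4). Its 1.58-fold difference passed (log2 0.66, SE 0.16, adjusted p = 0.00209). Nfkbib overlaps Sirt2 and Ccer2 on the other strand.

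Nfkbiz encodes IκBζ, an inducible nuclear cofactor of p50 at late target genes, and Bcl3 encodes a nuclear cofactor of p50 and p52. Nfkbiz was at 69.1 to 666 CPM (median 280.4) in CD45+ and at 25.3 to 744 CPM (median 211) in CD45- libraries. No CD45+ library was above the highest CD45- library, and the 2.12-fold difference passed narrowly (log2 1.08, SE 0.34, adjusted p = 0.0147). It did not pass with all 24 libraries (0.80, adjusted p = 0.0781) or without CD45+ Hoil1-/- f/f replicate 2 (0.74, adjusted p = 0.0748). Bcl3 was at 42.8 to 214 CPM (median 91.3) against 48.6 to 113 CPM (median 69.8), a log2 difference of 0.37 (SE 0.18) that did not pass (adjusted p = 0.106). It passed without CD45+ Hoil1+/+ f/f replicate 1 (adjusted p = 0.0425) or without CD45+ Hoil1-/- f/f replicate 3 (adjusted p = 0.0485).

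**Figure D2:**
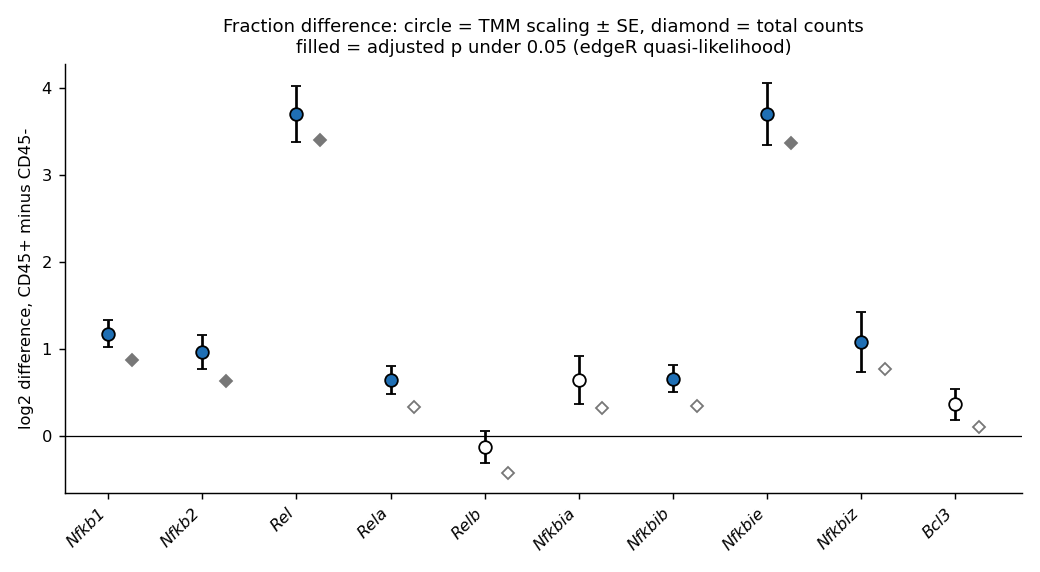
Log2 difference between CD45+ and CD45- cells for the 10 genes, with TMM scaling (circles, bars ± SE) and with scaling to total counts (diamonds); filled symbols had an adjusted p under 0.05. Rel (3.70) and Nfkbie (3.69) stand above the other genes, which lie between -0.12 and 1.17, and total counts lower every gene and leave 4 filled.

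The scaling set how many of these genes passed. Immunoglobulin genes took 12.1 to 44.0% of the counts in CD45+ libraries and at most 1.66% in CD45- libraries, and TMM scaling, which compares the bulk of the genes, offsets such a load. With scaling to total counts the median of all genes moved from 0.03 to -0.27, the calls over all genes moved from 4602 higher and 4719 lower to 3072 higher and 5554 lower, and 4 members passed, namely Nfkb1, Nfkb2, Rel and Nfkbie. Rela (0.34, adjusted p = 0.208), Nfkbib (0.35, adjusted p = 0.072) and Nfkbiz (0.77, adjusted p = 0.0907) then did not.

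Over all 18778 genes tested between the fractions, 4602 (24.5%) were higher and 4719 were lower in CD45+ cells. The genes around the 10 in the pathway differed as follows. Of 16 adapters that carry receptor signals to IKK, 15 were higher in CD45+ cells and 1 was lower. Birc3, which encodes a ubiquitin ligase of TNF receptor complexes, averaged 201 CPM in CD45+ and 25.1 CPM in CD45- cells, and Birc2, its homologue, 56.4 and 20.4 CPM. Tradd, the adapter of the TNF receptor, was the adapter that was lower, at 20.7 and 38.6 CPM. Of 9 genes of the linear ubiquitin machinery, 6 were higher and none was lower, led by the deubiquitinases Cyld (113 and 22.7 CPM) and Otulin (50.0 and 11.8 CPM). Of 11 IKK and upstream kinase genes, 5 were higher, such as Tab2 (179 and 59.6 CPM) and Map3k14, the kinase that starts p100 processing (96.7 and 21.9 CPM), and Tab1 was lower (12.8 and 19.3 CPM).

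Of 17 receptors, 11 were higher and 3 lower in CD45+ cells, where 24.5% of all genes were higher. Tlr9, the sensor of microbial DNA, averaged 71.4 CPM in CD45+ cells and had no count in the fitted CD45- libraries, and Il17ra, a chain of the IL-17 receptor, averaged 92.4 and 10.8 CPM. Ltbr, the lymphotoxin receptor that feeds Relb and Nfkb2, was lower (48.6 and 120 CPM), as was Il1r1, the IL-1 receptor (11.7 and 63.6 CPM). Of 10 ligands, 8 were higher, including Tnf (70.3 and 2.23 CPM) and Ltb (102 and 0.877 CPM), and the alarmin Il33 was lower (0.534 and 18.3 CPM). Of 21 known target genes, 9 were higher, such as the chemokines Ccl2 (57.9 and 2.01 CPM) and Cxcl2 (169 and 0.173 CPM). Lower targets numbered 3, among them Sele, which encodes E-selectin of endothelium (0.248 and 51.0 CPM), and Bcl2l1 (33.6 and 59.8 CPM). Of 7 other regulators, 2 were higher, which is near the share over all genes, and 1 was lower. Nfkbid, a nuclear IκB protein like Bcl3, averaged 97.0 CPM in CD45+ and 9.40 CPM in CD45- cells. Nkrf, a repressor, averaged 7.24 and 4.44 CPM, and Nkiras2, which binds IκB proteins, was the regulator that was lower (30.4 and 56.9 CPM). Of 20 immediate-early and heat-shock genes, 9 were higher and 1 lower, with Junb (3016 and 912 CPM) and Nr4a1 (890.1 and 207 CPM) higher and Klf4, a factor of epithelium and endothelium, lower (74.1 and 458 CPM).

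Levels were compared between genes as CPM per kb of exon, with the length taken over all annotated exons of a gene. That length was 12.1 kb for Nfkb1 and 3.07 kb for Rela. The transcripts expressed may be shorter, so the order depends in part on the annotation. Nfkbia stood highest in each of the 24 libraries, with medians of 351 CPM per kb in CD45+ and 211 in CD45- cells, and Nfkbiz followed with medians of 55.9 and 42.0. In CD45+ cells Rela (42.9), Bcl3 (36.9) and Nfkbie (35.0) came next, then Nfkbib (23.9), Nfkb2 (22.8), Rel (16.2), Relb (13.8) and Nfkb1 (11.02). In CD45- cells the order went on with Bcl3 (28.2), Rela (24.6), Nfkbib (16.8), Relb (14.2), Nfkb2 (13.2), Nfkb1 (5.67), Nfkbie (2.13) and Rel (1.41). Nfkbie thus ranked 5 and Rel 8 of 10 in CD45+ cells, and they ranked 9 and 10 in CD45- cells.

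No pair of neighbours in either order had ranges that lay apart. Compared library by library, the upper gene was above the lower in all 12 libraries for Nfkbia over Nfkbiz in both fractions, and in CD45- cells for Nfkb2 over Nfkb1 and for Nfkb1 over Nfkbie. Bcl3 was above Nfkbie in 6 of 12 CD45+ libraries, Nfkbib above Nfkb2 in 5 and Rel above Relb in 6, so that these neighbours did not differ beyond their spread.

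**Figure D3:**
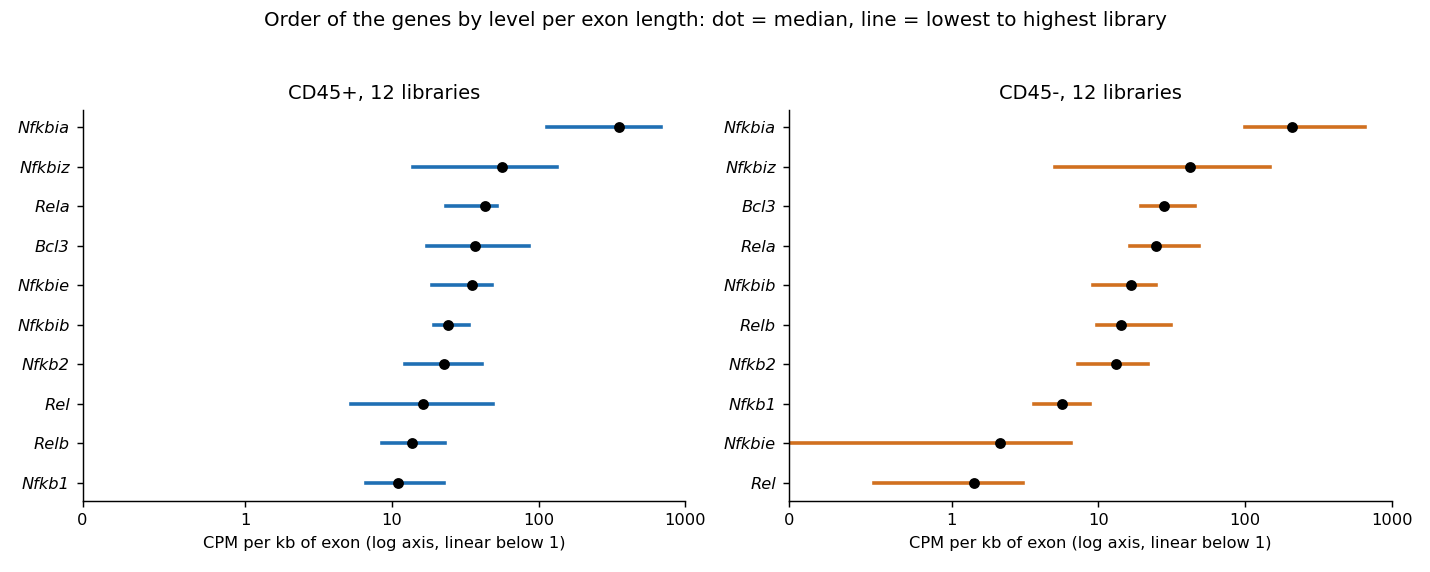
Level of each gene in CPM per kb of exon, on a log axis that is linear below 1, in the 12 CD45+ (left) and 12 CD45- (right) libraries, with a dot at the median and a line from the lowest to the highest library. Nfkbia is first in both (medians 351 and 211), and Rel and Nfkbie drop from 16.2 and 35.0 in CD45+ to 1.41 and 2.13 in CD45- libraries.

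Within a fraction the genes differed in how steady they were. In CD45+ libraries Nfkbib varied least, with a highest level 1.74 times its lowest and a coefficient of variation of 19.6%, and Rel (9.37 times, 68.7%) and Nfkbiz (9.63 times, 58.6%) varied most. In CD45- libraries the coefficient of variation was highest for Nfkbiz (81.8%), Nfkbie (74.9%) and Nfkbia (60.9%) and lowest for Nfkb1 (26.2%), Nfkb2 (26.4%) and Bcl3 (27.1%).

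In CD45- cells several genes were highest or lowest in the libraries with the highest endothelial markers. The 4 libraries with the highest summed endothelial markers (13964 to 18311 CPM) were Hoil1+/+ f/f replicate 2, Hoil1+/+ ΔIEC replicate 3 and Hoil1-/- ΔIEC replicates 1 and 2, and the other 8 had 2525 to 9249 CPM. Rela was at 122 to 150.1 CPM in these 4 and at 50.2 to 80.9 CPM in the other 8. Nfkb1 was at 87.2 to 106 CPM against 43.6 to 76.0 CPM, and Nfkbia at 459 to 1066 CPM against 160 to 391 CPM. All 3 were higher in each of the 4 libraries than in any other, and Nfkbib was lower in each, at 20.0 to 27.0 CPM against 27.8 to 53.2 CPM. It was not counted how many of all genes lay apart between these libraries, so whether this is particular to the members is not known.

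Relb was highest in the libraries with the highest enterocyte markers. The 4 libraries with the highest summed enterocyte markers (18999 to 33352 CPM) were Hoil1-/- f/f replicates 1 and 2 and Hoil1+/+ ΔIEC replicates 1 and 2, and the other 8 had 328 to 11755 CPM. Relb was at 69.7 to 121 CPM in these 4 and at 38.2 to 66.4 CPM in the other 8. The general epithelial markers were also high in these genotypes, with medians of 15805 CPM in Hoil1-/- f/f and 13850 CPM in Hoil1+/+ ΔIEC libraries. Their medians were 4181 CPM in Hoil1+/+ f/f and 3629 CPM in Hoil1-/- ΔIEC libraries. In CD45+ cells Rel, Rela and Nfkb1 were lowest in the 3 libraries with the highest summed macrophage markers (9763 to 14214 CPM against 3337 to 8114 CPM in the other 9). These were Hoil1+/+ f/f replicate 1 and 2 of the libraries the study left out, Hoil1-/- f/f replicate 1 and Hoil1-/- ΔIEC replicate 3. Rel was at 39.0 to 61.3 CPM in those 3 libraries and at 74.6 to 365 CPM in the other 9. These libraries were set apart after their values were seen and are not groups of the study, so no test was made. The share of all genes that lay apart in the same way was not counted here either.

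The Hoil1 contrasts ask whether HOIL1 deficiency moved the mRNA of the pathway it acts in. In CD45- cells the gene that stood out was Nfkbiz. It was at 318, 744 and 237 CPM in Hoil1+/+ f/f libraries, at 25.3 and 34.3 CPM in the fitted Hoil1-/- f/f libraries and at 103 CPM in the library the study left out. All Hoil1-/- f/f libraries were below all Hoil1+/+ f/f libraries, and how many of all genes lay apart in this way was not counted. In ΔIEC mice Nfkbiz was at 185, 129 and 408 CPM in Hoil1+/+ and at 257, 310 and 139 CPM in Hoil1-/- libraries. These ranges overlapped. The log2 difference in f/f mice was -3.85 (SE 0.67), with an adjusted p of 0.0945 that did not pass. In ΔIEC mice it was -0.02, which changed sign without either of 2 libraries, and averaged over both Il4ra genotypes it was -1.93 (SE 0.40, adjusted p = 0.297).

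The test of the difference between the Il4ra genotypes, the interaction, was 3.83 for Nfkbiz (SE 0.81, adjusted p = 0.12). Without CD45- Hoil1+/+ ΔIEC replicate 3 it passed (4.41, adjusted p = 0.0232). Nfkbiz passed in the f/f contrast with the likelihood ratio test of edgeR (adjusted p = 6.01e-05) and with DESeq2 (adjusted p = 1.71e-08), which called 350 and 613 genes there where the quasi-likelihood test called 6. With all 12 CD45- libraries the f/f difference was -2.93 (adjusted p = 0.265).

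Nfkbiz had company in this pattern. Over the 12 CD45- libraries the gene nearest to it in pattern was Egr1, an immediate-early transcription factor, and the next was Ier3, a target gene of NF-κB. Their root mean square distances from Nfkbiz were 0.32 and 0.35 on the log2 scale after centring each gene, where Nfkbiz itself varied by 1.35. Egr1 and Ier3 were picked as the nearest of the 11087 genes compared over these libraries. Their likeness to Nfkbiz follows from that choice. Egr1 was at 4737, 6187 and 3388 CPM in Hoil1+/+ f/f and at 330.1, 473 and 1126 CPM in Hoil1-/- f/f libraries. Egr1 is also 1 of the 20 summed genes given next. The summed CPM of 20 immediate-early and heat-shock genes, which cell isolation can induce, was 13236 to 29773 in Hoil1+/+ f/f, 8593 to 20510 in Hoil1+/+ ΔIEC, 3969 to 6602 in Hoil1-/- f/f and 10999 to 14330 in Hoil1-/- ΔIEC libraries. Of these 20 genes, 14 were lower in the f/f contrast at an unadjusted p under 0.05 and none after adjustment. Of all genes tested, 13.1% were under that unadjusted p in either direction. The tuft cell markers summed to 545 and 778 CPM in the fitted Hoil1-/- f/f libraries and to 24.8 to 64.3 CPM in the other 10. The 6 smooth muscle and pericyte markers summed to 476 to 2182 CPM in Hoil1-/- f/f and to 3338 to 5219 CPM in Hoil1+/+ f/f libraries, and the hematopoietic markers to 43.2 to 153 CPM and to 4.30 to 24.1 CPM, without overlap. Epithelial markers were at 15805 and 17277 CPM in the fitted Hoil1-/- f/f libraries, at 4618 CPM in the library left out and at 2680 to 9724 CPM in Hoil1+/+ f/f libraries. The part of these genes and cell types in the level of Nfkbiz was not tested.

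**Figure D4:**
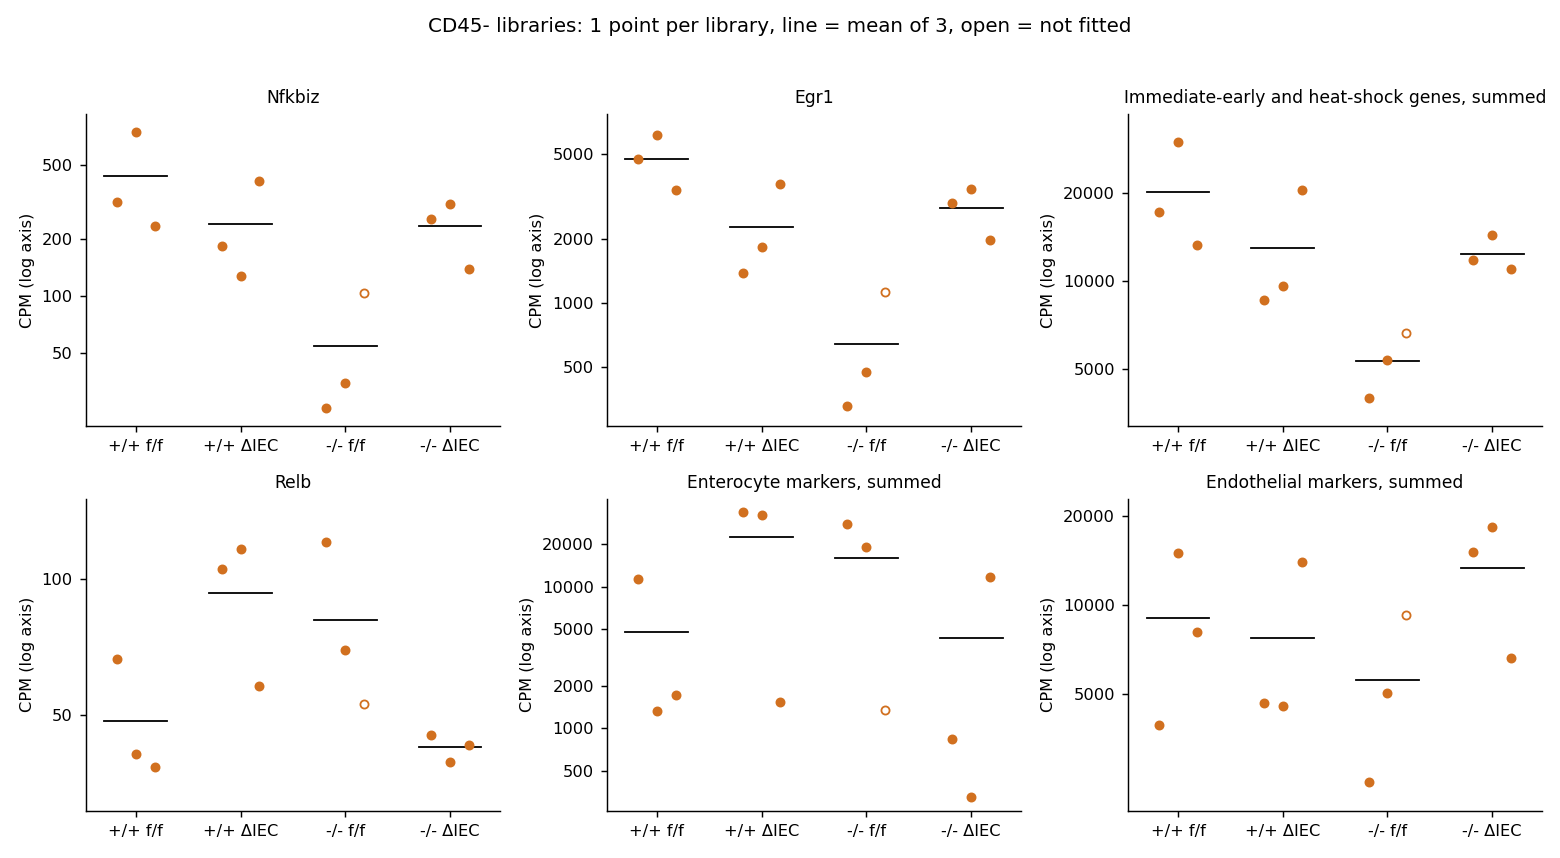
CPM of Nfkbiz, Egr1 and Relb and summed CPM of 3 gene lists in the 12 CD45- libraries, each on its own log axis, by Hoil1 and Il4ra genotype, with a line at the mean of 3 and an open point for the library that was not fitted. Nfkbiz, Egr1 and the immediate-early and heat-shock sum are all lowest in Hoil1-/- f/f libraries, and the 4 libraries highest in Relb are the 4 highest in enterocyte markers. Egr1 was picked as the gene nearest to Nfkbiz over these libraries and is part of that sum.

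Relb differed in opposite directions in the 2 Il4ra genotypes. In f/f mice it was at 66.4, 41.0 and 38.2 CPM in Hoil1+/+ and at 121, 69.7 and, in the library left out, 52.7 CPM in Hoil1-/- libraries. In ΔIEC mice it was at 105, 116 and 57.7 CPM in Hoil1+/+ and at 45.1, 39.3 and 42.9 CPM in Hoil1-/- libraries. The high libraries are those rich in enterocyte markers. The log2 differences were 0.99 (SE 0.39, adjusted p = 0.362) in f/f and -1.13 (SE 0.36, adjusted p = 0.603) in ΔIEC mice, the former being 0.49 without Hoil1-/- f/f replicate 1, and the interaction was -2.12 (SE 0.54, adjusted p = 0.121). The interaction passed without CD45- Hoil1-/- f/f replicate 2 (-2.49, adjusted p = 0.0397) or without CD45- Hoil1+/+ ΔIEC replicate 3 (-2.38, adjusted p = 0.0274). The part of enterocyte or other epithelial content in it was not tested.

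Nfkbia had the next difference by size in f/f mice. It was at 391, 1066 and 343 CPM in Hoil1+/+ f/f and at 160, 250.2 and 217 CPM in Hoil1-/- f/f libraries, which were all lower. The share of all genes that lay apart in this way was not counted. The log2 difference of Nfkbia, -1.54 (SE 0.58), did not pass after adjustment (adjusted p = 0.36), and without Hoil1+/+ f/f replicate 2 it was -0.85. Rel averaged 5.24 CPM in the fitted Hoil1-/- f/f and 14.9 CPM in Hoil1+/+ f/f libraries (log2 difference -1.48, SE 0.69), and Rela averaged 56.1 and 100.5 CPM (-0.83, SE 0.39, or -0.44 without Hoil1+/+ f/f replicate 2), with adjusted p of 0.388 and 0.393. Nfkbib was the inhibitor that was higher in level there, at 49.2 against 29.9 CPM (0.73, SE 0.39, adjusted p = 0.416). Hoil1+/+ f/f replicate 2 was among the 4 libraries richest in endothelial markers, where Nfkbia and Rela were higher and Nfkbib lower. No Hoil1-/- f/f library was among those 4, with summed endothelial markers of 2525 to 9249 CPM. The part of cell makeup in these differences was not tested.

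No member passed in any of the 5 CD45- genotype contrasts under the quasi-likelihood test. Among the 16453 genes tested, 0.0182% passed in the averaged Hoil1 contrast, 0.0365% in f/f mice, 0.00608% in ΔIEC mice, and 0% in the averaged Il4ra contrast and in the interaction. At an unadjusted p under 0.05 there were, in that order, 1, 3, 1, 1 and 2 members of 10, and 5.28%, 13.1%, 7.66%, 5.90% and 20.7% of all genes. The likelihood ratio test and DESeq2 each called 1, 1, 0, 0 and 2 members. Over all genes the likelihood ratio test called 135, 350, 62, 143 and 1223, and DESeq2 called 168, 613, 138, 159 and 1466.

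**Figure D5:**
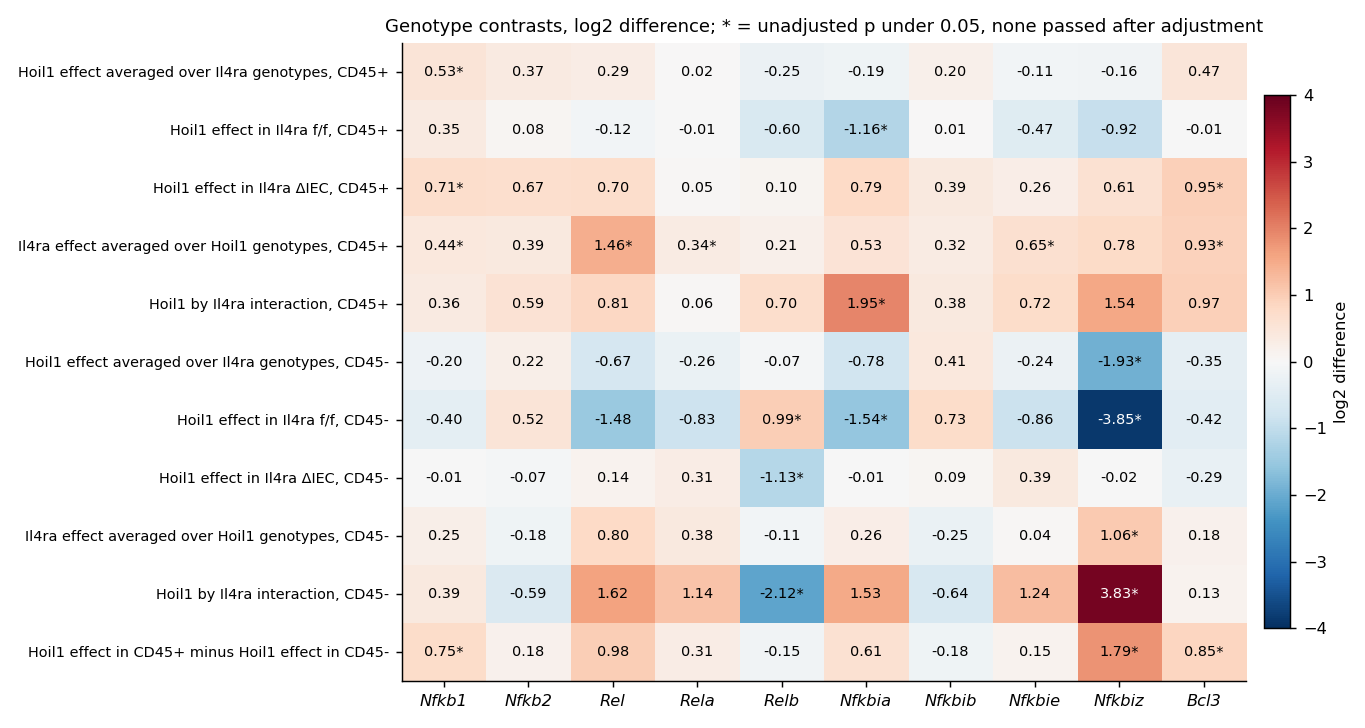
Log2 differences of the 10 genes (columns) in the 11 contrasts that involve genotype (rows), colored from -4 to 4, with a star where the unadjusted p was under 0.05. The 2 largest values belong to Nfkbiz in CD45- cells, -3.85 for Hoil1 in f/f mice and 3.83 for the interaction, and no value passed after adjustment.

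In CD45+ cells the Il4ra contrast held the most members at an unadjusted p under 0.05, namely Rel, Nfkbie, Bcl3, Nfkb1 and Rela, against 10.6% of all genes. All 10 genes had a higher fitted level in ΔIEC than in f/f mice. Their median log2 difference was 0.48, against -0.01 over all genes. Cell makeup differed along with it: 7 plasma cell markers summed to 20207 to 49979 CPM in Hoil1+/+ f/f, 12142 to 16559 CPM in Hoil1+/+ ΔIEC, 24480 and 34794 CPM in the fitted Hoil1-/- f/f and 16435 and 8983 CPM in the fitted Hoil1-/- ΔIEC libraries. The 8 macrophage markers summed to 5778 to 10353 CPM in Hoil1+/+ f/f and 3337 to 5773 CPM in Hoil1+/+ ΔIEC libraries, and to 4515 and 5477 CPM in the fitted Hoil1-/- f/f and 6360 and 6011 CPM in the fitted Hoil1-/- ΔIEC libraries. Their part in the differences was not tested. All 10 genes also had a positive log2 difference for Hoil1 in ΔIEC mice (median 0.64, against -0.06 over all genes) and in the interaction (median 0.71, against -0.11). With all 12 libraries the median for Hoil1 in ΔIEC mice was 0.26, and Rela and Relb changed sign. The interaction median was then 0.68, and Rela changed sign. How many of all genes were positive in these contrasts is not given here. Each of these contrasts, that for Il4ra included, rests on the fitted Hoil1-/- ΔIEC libraries. Rel was at 44.6, 93.1 and 148 CPM in Hoil1+/+ f/f and at 102 and 74.6 CPM in the fitted Hoil1-/- f/f libraries. In ΔIEC mice it was at 139, 221 and 227 CPM in Hoil1+/+ and at 275 and 365 CPM in the fitted Hoil1-/- libraries. The ranges overlapped by 1 library on each side. The libraries left out were at 61.3 CPM in Hoil1-/- f/f and at 39.0 CPM in Hoil1-/- ΔIEC, the latter being the lowest of all 12.

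The averaged difference for Rel was 2.75-fold (log2 1.46, SE 0.32) and did not pass after adjustment (adjusted p = 0.215). DESeq2 (adjusted p = 0.00103) and the likelihood ratio test (adjusted p = 0.0106) called it. With all 12 libraries the difference was 1.26 (adjusted p = 0.864). Nfkbie averaged 133 CPM in ΔIEC and 86.2 CPM in f/f mice (log2 0.65, SE 0.17), and Bcl3 averaged 142 and 71.1 CPM (0.93, SE 0.25). Both had an adjusted p of 0.286, and both were called by DESeq2, with adjusted p of 0.0275 for Nfkbie and 0.0221 for Bcl3. Kdm6b, which encodes a histone demethylase, and Gpr132, a lipid-sensing receptor, were nearest to Rel in pattern over the 12 CD45+ libraries, at distances of 0.25 and 0.26 where Rel varied by 1.00.

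For Hoil1 in CD45+ cells, Nfkb1, Bcl3 and Nfkbia had an unadjusted p under 0.05 in at least 1 contrast. Nfkb1 was at 120, 129 and 122 CPM in Hoil1+/+ f/f and 135, 152 and 152 CPM in Hoil1+/+ ΔIEC libraries, and at 187 and 131 CPM in the fitted Hoil1-/- f/f and 273 and 211 CPM in the fitted Hoil1-/- ΔIEC libraries. In each Il4ra genotype the fitted Hoil1-/- libraries were above the Hoil1+/+ ones, and the share of all genes apart in this way was not counted. The averaged log2 difference was 0.53 (SE 0.16) and did not pass after adjustment (adjusted p = 0.783). The libraries left out went the other way, at 80.6 and 101 CPM, the lowest of all 12. Bcl3 averaged 188 CPM in the fitted Hoil1-/- ΔIEC and 95.9 CPM in the Hoil1+/+ ΔIEC libraries (log2 0.95, SE 0.34, adjusted p = 0.775), and the library left out was at 65.6 CPM.

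Nfkbia was at 715, 432 and 1098 CPM in Hoil1+/+ f/f and at 490 and 182 CPM in the fitted Hoil1-/- f/f libraries, and at 459, 450.4 and 724 CPM in Hoil1+/+ ΔIEC and 878 and 1020 CPM in the fitted Hoil1-/- ΔIEC libraries. Its log2 difference was -1.16 (SE 0.50, adjusted p = 0.836) in f/f mice and the interaction was 1.95 (SE 0.68, adjusted p = 0.694), neither of which passed. The f/f difference was -2.06 without Hoil1-/- f/f replicate 2 and -0.61 without Hoil1-/- f/f replicate 3. The library at 182 CPM, Hoil1-/- f/f replicate 3, also had the lowest summed immediate-early and heat-shock level of the fraction, 5772 CPM against 13746 to 40270 CPM in the other 11, and the lowest Nfkbiz, 69.1 CPM. Their part in the result was not tested.

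No member passed in the 5 CD45+ genotype contrasts under the quasi-likelihood test. Among the 17029 genes tested, 0.00587% passed in the averaged Hoil1 contrast, 0% in f/f mice, 0% in ΔIEC mice, 0.00587% in the averaged Il4ra contrast and 0% in the interaction. At an unadjusted p under 0.05 there were, in that order, 1, 1, 2, 5 and 1 members of 10, and 5.85%, 5.27%, 6.08%, 10.6% and 7.01% of all genes. The likelihood ratio test called 0, 0, 0, 1 and 0 members and DESeq2 0, 0, 0, 3 and 0. Over all genes the likelihood ratio test called 103, 66, 51, 201 and 68, and DESeq2 called 126, 93, 159, 341 and 160.

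The Hoil1 effect was also compared between the fractions in a single fit of 21 libraries. The effect in CD45+ minus that in CD45- cells was 1.79 for Nfkbiz (SE 0.69), 0.85 for Bcl3 (SE 0.36) and 0.75 for Nfkb1 (SE 0.31) on the log2 scale. All 3 had an unadjusted p under 0.05, and none passed after adjustment, with adjusted p of 0.797, 0.852 and 0.826. With all 24 libraries 0 members had an unadjusted p under 0.05, and without CD45+ Hoil1-/- f/f replicate 2 the difference for Nfkbiz was 1.01. Over all genes 0.0266% passed, 5.48% had an unadjusted p under 0.05, and the likelihood ratio test and DESeq2 called 206 and 262 genes but no member.

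Of the 111 genes of the 8 lists, Rbck1 itself was the only 1 that passed in a genotype contrast under the quasi-likelihood test. It passed in the averaged Hoil1 contrast in both fractions and within each Il4ra genotype in CD45- cells. In the averaged contrast it was 18.8-fold lower in CD45- cells (log2 -4.23, SE 0.33, adjusted p = 0.00106) and 13.98-fold lower in CD45+ cells (-3.81, SE 0.32, adjusted p = 0.0069). At an unadjusted p under 0.05, 9 of 19 tested target genes were lower and none higher for Hoil1 in f/f mice in CD45- cells, with a median log2 difference of -2.47 against -0.17 over all genes, of which 13.1% were under that p. The immediate-early and heat-shock list went the same way there (14 of 20 lower, median -2.07), as did the smooth muscle and pericyte markers given above. In the CD45- interaction 8 of 19 target genes were higher and 1 was lower, against 20.7% of all genes under that p. In CD45+ cells 4 of 21 target genes were lower for Hoil1 in f/f mice and 5 were higher in ΔIEC mice (5.27% and 6.08% of all genes), 6 were higher for Il4ra (10.6%) and 9 were higher in the interaction (7.01%). Of 17 receptors, 6 were higher and 2 lower in the CD45+ interaction. Of 16 adapters, 4 were higher and 1 lower for Il4ra in CD45+ cells.

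The genes nearest in pattern to the others differed between the fractions. In CD45+ libraries they were Hmbox1 and Ppp1r15b for Nfkb1, Syk and Tom1 for Nfkb2, Dgkz and Irf2 for Rela, and Nhlrc3 and Mob2 for Relb. Nrros and Ier5 were nearest to Nfkbia there, Sars2 and Plpbp to Nfkbib, Ubald1 and Sfpq to Nfkbie, Nfil3 and Nlrp3 to Nfkbiz, and Midn and Etv3 to Bcl3. In CD45- libraries they were Mlxip and Ddx5 for Nfkb1, Bri3 and Aup1 for Nfkb2, Zfp142 and Inpp5e for Rel, Txnip and Foxo1 for Rela, and Tmem41a and Ifngr2 for Relb. Bcr and Bhlhe40 were nearest to Nfkbia there, Chmp2a and Lsm4 to Nfkbib, Chn1 and Zxdc to Nfkbie, and Gna13 and Prodh to Bcl3. No gene had the same nearest gene in both fractions, and none had another of the 10 among its nearest. The nearest member was at 0.30 for Rela and Nfkbia in CD45- libraries, where Rela varied by 0.49 and Nfkbia by 0.72, and at 0.31 for Rela and Nfkb1 in CD45+ libraries. Distances are descriptions over 12 libraries that share depth and cell makeup.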

How the data were processed

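Messenger RNA of sorted ileal cells was sequenced, with 12 libraries in each CD45 fraction. The values deposited by the authors were raw counts per ENSEMBL gene from featureCounts, made after adapter trimming (cutadapt) and STAR alignment to the mm10 (GRCm38) genome. The strand setting of the counting is not given in the sources used here. The table named every column by its sample (0 columns of values without one), and libraries of one group differed beyond sampling noise (chi-square per degree of freedom at least 37.7).

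Counts were scaled with TMM factors, genes were filtered with filterByExpr (minimum count 10, minimum total 15), and contrasts were tested in edgeR 4.0.16 (R 4.3.3) with the two-sided quasi-likelihood test and Benjamini-Hochberg adjustment over all genes tested, called at an adjusted p under 0.05. Each fraction was fitted on its 4 genotypes (10 CD45+ and 11 CD45- libraries), and contrasts between fractions on all 21. The 3 libraries that the study left out were not fitted. The code was tested on simulated data. The labels do not say which libraries of the 2 fractions came from one mouse. Replicate numbers follow the order of deposit. The p-values weigh a mean difference against the spread between libraries, which the fit between fractions treated as independent. Counting floors cover counting error only.

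The 10 genes and the gene lists were chosen with earlier results of these data known. All 10 were named, with at most 2 genes a list and direction with the smallest p between fractions, every list gene called in a genotype contrast, and the 2 genes nearest in log2(CPM + 0.5) over 12 libraries among those with a mean of at least 5 CPM. Libraries set apart by marker sums were chosen after their values were seen. CPM per kb used the length of all exons annotated for a gene in GENCODE M21, with shared bases counted once. Alternatives were all 24 libraries, the likelihood ratio test, DESeq2 1.42.0, scaling by RLE factors, dropping the filter, removing 390 immunoglobulin genes, leaving out each library and, between fractions, total counts.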

Additional observations from a re-analysis of the deposited data

How the results depend on the processing

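Between the fractions, 7 members passed with all libraries, the likelihood ratio test, DESeq2, RLE size factors, no filter and immunoglobulin genes removed, although with all libraries Nfkbia replaced Nfkbiz. With total counts 4 passed, and leaving out each library in turn gave 6 to 9. In the genotype contrasts the quasi-likelihood test called 0 members under every scaling and filter. The likelihood ratio test called 1 member and DESeq2 called 3 for Il4ra in CD45+ cells, and in CD45- cells each called 1 for Hoil1 averaged, 1 for Hoil1 in f/f mice and 2 for the interaction. Leaving out a library moved the interaction in CD45- cells between 0 and 2 members and left the other genotype contrasts at 0. Between the fractions, for Il4ra in CD45+ cells and for Hoil1 in f/f mice in CD45- cells, no member changed direction under any alternative. Over all genotype contrasts, 28 of 110 member differences changed direction under at least 1 alternative, 8 of them with all libraries, and none of the 28 had an unadjusted p under 0.05 at the outset. Among them, Nfkbiz for Hoil1 in ΔIEC mice in CD45- cells ranged from -0.31 to 0.56 when a library was left out. The cause of these differences was not tested.

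Over all genes, leaving out a library moved the calls for Hoil1 in CD45- cells from 3 to between 1 and 173 averaged and from 6 to between 0 and 474 in f/f mice. It moved those for Il4ra from 0 to as many as 220 and for the interaction from 0 to as many as 1199. For Hoil1 between the fractions the calls went from 5 to between 2 and 211, and in CD45+ cells they reached at most 10 for Hoil1 averaged, 7 in f/f mice and 8 for Il4ra. With all libraries, Hoil1 in CD45- cells gave 0 calls averaged and 0 in f/f mice, and without a filter 4 and 11. No paired analysis was possible because the labels do not say which CD45+ and CD45- libraries came from one mouse. In the smallest library, 3 counts were 0.41 CPM.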
